A study of Mus musculus with 10 samples.

Results

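Runx1, Runx2 and Runx3 encode the DNA-binding subunits of the core-binding factors, and 4 further genes encode the proteins that work with them. Cbfb encodes CBFβ, the subunit that all 3 RUNX proteins share, and Cbfa2t2, Cbfa2t3 and Runx1t1 encode the ETO family of corepressors. These 7 genes were taken as a list by symbol from a table of 55359 genes, with no threshold on a measured value. They were all found in it by their Ensembl identifiers. RNA had been sequenced from mouse Lin- bone marrow cells, the cells left after a depletion kit has removed those that carry surface markers of the mature blood lineages. There were 5 libraries from Dhx9f/f mice (WT), in which both copies of the helicase gene Dhx9 are flanked by loxP sites, and 5 from Dhx9f/f;MX1 mice (cKO). The latter carry the same floxed alleles and a Cre recombinase under the interferon-responsive Mx1 promoter, which is switched on with the RNA mimic poly(I:C). The sources used here do not say whether the WT mice that were sequenced received poly(I:C), and if they did not, its effect and that of the genotype cannot be told apart. The Mx1 promoter also responds outside blood cells, and the age of the mice is not given for these libraries.

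A RUNX protein binds DNA through its Runt domain at the sequence TGTGGT and, less tightly, at TGCGGT. CBFβ does not touch DNA itself but makes the Runt domain bind more strongly and shields the RUNX protein from degradation. RUNX1 is required for blood stem cells to arise and later, in bone marrow, for platelet, lymphoid and myeloid development. RUNX2 is best known from bone-forming cells and is also made in plasmacytoid dendritic cells and early progenitors, while RUNX3 is best known from T and natural killer cells. ETO family proteins do not bind DNA on their own. CBFA2T3 (ETO2) is the member known from the complex of TAL1, LMO2, LDB1 and GATA factors in red cell and megakaryocyte precursors, and RUNX1T1 (ETO) is the part fused to RUNX1 in a leukemia.

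The targeted gene went against the labels. Dhx9 was 65.4 to 72.4 FPKM in the WT libraries and 130.8 to 156.5 FPKM in those labelled cKO, that is, higher in every one of them (log2 fold change 1.0 ± 0.0654 SE, limma adjusted p = 1.39e-05). The table gives 1 value per gene, so reads from undeleted exons were not separated from others, and every direction below is given as labelled cKO against labelled WT. Xist, the RNA of the silent X chromosome, was at or under 0.09 FPKM in all 5 labelled cKO libraries and in 2 of the WT libraries and above 99 FPKM in the other 3, so that sex moves with the label and is mixed only within WT. Depth, read from the spacing of low values, was about 15070250 to 18822000 fragments in the WT libraries and 13791000 to 17176500 in the labelled cKO libraries. The labels number the samples but do not say that each came from a separate mouse, so p-values measure only the spread between these libraries.

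Some starts of the RUNX genes themselves have the RUNX-binding sequence nearby, in 1 of 3 for Runx1, 2 of 4 for Runx2 and 1 of 2 for Runx3, and these are shown to let them be compared. The windows searched ran from 250 bases before to 50 bases after each annotated start of GRCm39, on both strands, and the 7 genes have 18 such starts. TGTGGT was present in 5 of the 18 windows, 27.8%, against 15.2% of the 45714 windows of all protein-coding genes and 16.4% of those of genes called lower. In the runs below, which read 5′ to 3′ in the direction of the gene, capitals mark TGTGGT or TGCGGT, and ACCACA is TGTGGT read on the other strand. The first is in the window of the upstream start of Runx3, the next 3 in windows of the 2 most upstream starts of Runx2, then follow that of the most upstream start of Runx1 and that of a start of Runx1t1.
Runx3, chr4:134847814-134847843: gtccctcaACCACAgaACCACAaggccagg
Runx2, chr17:45125466-45125495: aacaACCACAgaACCACAagTGCGGTgcaa
Runx2, chr17:45125577-45125606: gtgaggtcacaaACCACAtgattctgtctc
Runx2, chr17:45125841-45125870: caggaaggccttACCACAagccttttgtca
Runx1, chr16:92623253-92623282: gttgttcctcaaACCACAaataacaacagg
Runx1t1, chr4:13784549-13784578: taaaaaaagcttTGTGGTctgtgcccttgt

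In Runx3 the 2 copies of ACCACA stand 8 bases apart and begin at -130 and -122 from the start at 134847952. In Runx2 a pair with the same spacing begins at -23 and -15 from the start at 45125468 and is followed by TGCGGT at -7, the only copy of that sequence in the 18 windows, against 7.26% of all windows. The Runx2 and Runx3 windows share the run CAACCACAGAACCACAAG, 18 bases long, which occurs in no other of the 45714 windows. The Runx1 site begins at -233 from the start at 92623037. The windows of Cbfb, Cbfa2t2 and Cbfa2t3 hold neither sequence.

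The ETS-type sequence GAGGAAG, a form of the site bound by factors such as PU.1 and FLI1, was in 6 of the 18 windows, 33.3%. It was in 13.0% of all windows and 17.2% of those of genes called lower. Of the 6, 3 are windows of Runx2 and 1 each of Runx1t1, Cbfb and Cbfa2t3, and Runx1, Runx3 and Cbfa2t2 have none. Matches are shown for Cbfb and Cbfa2t3, whose windows lack the RUNX sequence, with GAGGAAG in capitals. The Cbfb matches begin at -177 and 18 from its single start and the Cbfa2t3 match shown at -40 from its most upstream start.
Cbfb, chr8:105897103-105897131: ggggaagtgctGAGGAAGgagcagggttt
Cbfb, chr8:105897297-105897325: gagggcggcgaGAGGAAGtggcggccgca
Cbfa2t3, chr8:123426068-123426096: aggcgggatagGAGGAAGttgttgggaag
These matches describe the letters near the starts. The expression table sums all transcripts of a gene, so use of the upstream start of Runx1, Runx2 or Runx3 was not separated from use of the others.

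Of the 7 genes, 6 averaged 0.1 FPKM or more and entered the test, which was limma on log2(FPKM + 0.1) over 18742 genes. A gene was called at an adjusted p under 0.05 together with a fold change of at least 2. By this rule 4 of the 6, Runx1, Runx2, Cbfb and Cbfa2t3, were called lower in the labelled cKO libraries, where 16.8% of all genes tested were, and 0 were called higher, where 4.6% of all genes were, nor was any higher at an unadjusted p under 0.05. In 5 of the 6 every labelled cKO library was below every WT library, as in 21.6% of all genes tested. The median log2 fold change of the 6 was -1.12, that of all genes tested -0.11. In a bulk preparation, fewer cells of a type and less RNA per cell cannot be told apart.

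**Figure D1:**
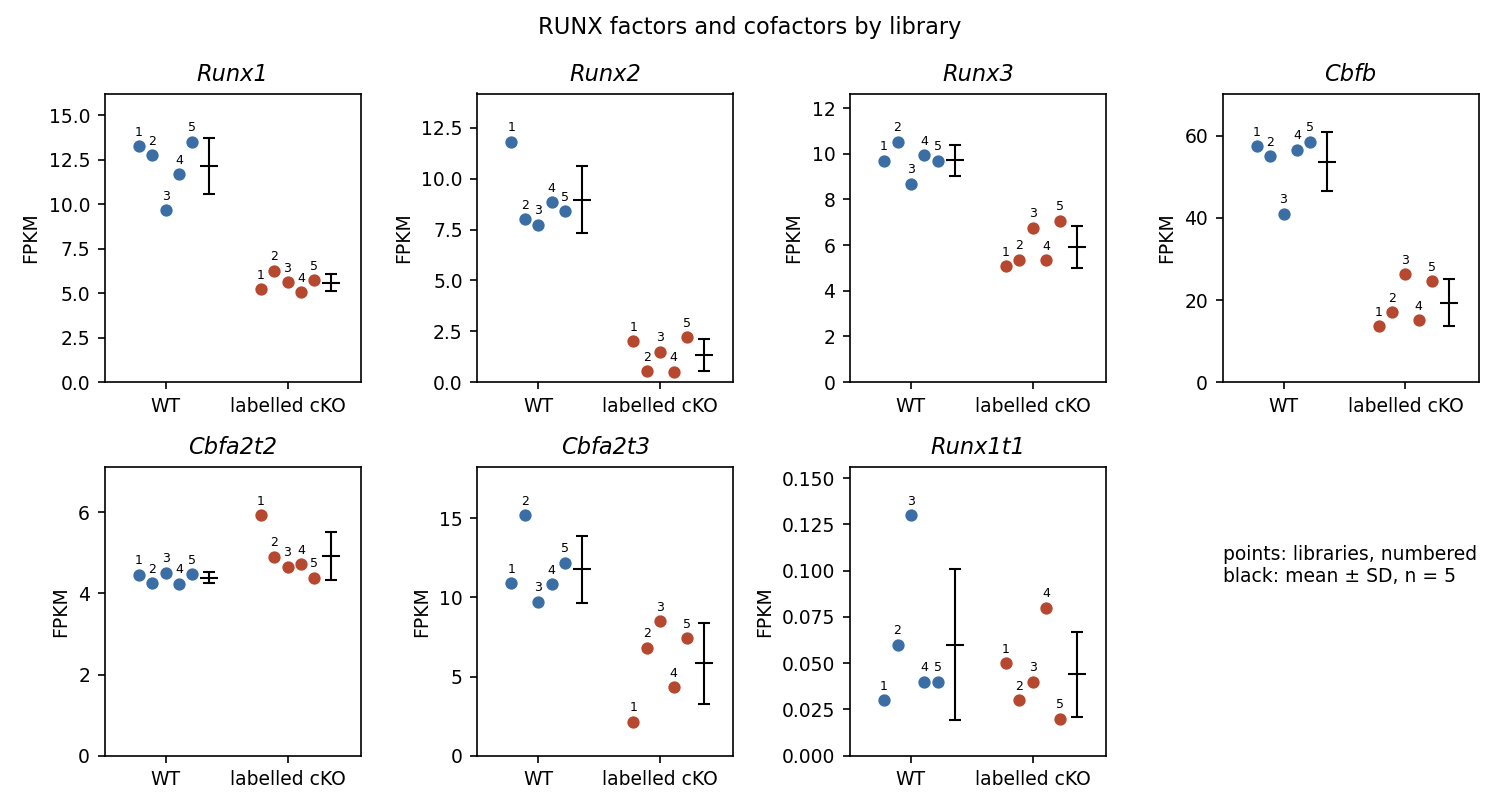
Level of each gene in FPKM (y axis, from 0, a scale of its own for each gene) in the 5 WT libraries (blue) and the 5 libraries labelled cKO (red), numbered as in the labels, with mean ± SD in black. The groups are apart for Runx1, Runx2, Runx3, Cbfb and Cbfa2t3 and overlap for Cbfa2t2 and Runx1t1, the latter at no more than 0.13 FPKM.

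Runx1 (ENSMUSG00000022952, chr16:92398354-92623037, minus strand) encodes the core-binding factor subunit that blood formation depends on. In WT libraries 1 to 5 it was 13.3, 12.8, 9.66, 11.7 and 13.5 FPKM, and in libraries 1 to 5 labelled cKO it was 5.23, 6.27, 5.61, 5.06 and 5.75 FPKM. The labelled cKO libraries lay close together, and even the lowest WT library, number 3, stood well above the highest of them. The means were 12.2 ± 1.57 and 5.58 ± 0.474 FPKM (SD, n = 5 each), the second being 45.8% of the first. Runx1 fell by 1.11 on the log2 scale (SE 0.107, 95% confidence interval -1.34 to -0.87, limma adjusted p = 6.12e-05), and 17.7% of all genes tested had a change as low or lower. The fold lies so near the limit of 2 that median-ratio scaling (-0.9999), a pseudocount of 1 (-0.996) and quantile normalization (-0.929) put it just under, each with an adjusted p under 0.0001.

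Runx2 (ENSMUSG00000039153, chr17:44806874-45125684, minus strand), the factor best known for bone formation, changed the most of the 7 genes. It was 11.8, 8.0, 7.75, 8.85 and 8.40 FPKM in WT libraries 1 to 5 and 2.0, 0.54, 1.5, 0.51 and 2.2 FPKM in those labelled cKO. WT library 1 was high among the WT libraries, and libraries 2 and 4 labelled cKO were well below the other 3 of their group. The means were 8.97 ± 1.65 and 1.35 ± 0.795 FPKM, a 6.64-fold ratio. Runx2 fell by 2.84 on the log2 scale (SE 0.38, 95% confidence interval -3.68 to -2.01, limma adjusted p = 2.32e-04), and 2.27% of all genes tested had a change as low or lower.

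Genes of bone-forming cells were measured at low levels. Sp7, the osteoblast factor osterix, and Alpl, bone alkaline phosphatase, were at or under 0.14 FPKM in all 10 libraries. Among the 8 genes listed as bone targets of RUNX2, 6 were tested, 2 were called lower and 1 higher. The shares of all genes tested were 16.8% lower and 4.6% higher. Col1a1, a chain of type I collagen, went from 1.5 ± 1.36 to 0.114 ± 0.152 FPKM (log2 fold change -2.78, adjusted p = 0.00209) and Ibsp, bone sialoprotein, from 1.12 ± 0.582 to 0.10 ± 0.0707 FPKM (-2.56, adjusted p = 5.76e-04). Col1a2, the other chain of type I collagen, went the opposite way, from 1.17 ± 0.757 to 4.51 ± 3.05 FPKM (1.74, adjusted p = 0.0276), with overlapping groups. This call was lost without any 1 of WT libraries 3, 4 and 5 or of libraries 2, 3 and 4 labelled cKO. Spp1, osteopontin, the next most abundant of the 8, was 3.65 ± 1.76 and 1.62 ± 1.05 FPKM (adjusted p = 0.0527), and Bglap, osteocalcin, 0.468 ± 0.328 and 0.50 ± 0.378 FPKM (adjusted p = 0.806), Bglap being named after its values were seen. The part of bone-forming cells in the level of Runx2 was not tested. The summed level of 9 stromal and osteoblast markers ranged from 5.27 to 14.2 FPKM in WT and from 3.10 to 10.6 FPKM in the labelled cKO libraries. Col1a1 and Col1a2 are among both these markers and the bone targets. Markers of plasmacytoid dendritic cells, which also make RUNX2, were lower in sum, at 61.3 to 77.8 against 16.0 to 40.8 FPKM. Of these 9 markers, 7 were tested and 4 were called lower (2 with a pseudocount of 1 or among genes averaging 1 FPKM or more), among them Siglech, a surface lectin of these cells, from 2.64 ± 0.620 to 0.122 ± 0.173 FPKM, and Irf8, a factor of dendritic cells and monocytes, from 46.2 ± 5.84 to 3.29 ± 4.43 FPKM. Irf8 made up most of the WT sum, and without it the sum was not lower in most labelled cKO libraries. Other markers went the opposite way, with Bcl11a, a factor of these and other blood cells and the second most abundant of the 9, at 12.3 ± 1.26 and 18.2 ± 3.57 FPKM (0.54, adjusted p = 0.0101, under 2-fold). Cox6a2, a cytochrome oxidase subunit, was 2.36 ± 0.852 and 6.82 ± 4.60 FPKM (adjusted p = 0.303) and is named after its values were seen.

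The 2 labelled cKO libraries lowest in Runx2, numbers 2 and 4, were also the lowest of all 10 in the summed markers of monocytes (18.5 and 8.85 FPKM) and neutrophils (181.2 and 147.8 FPKM). The other 3, numbers 1, 3 and 5, held 64.8, 157.6 and 246.0 FPKM of monocyte markers, and the WT libraries 839.2 to 1487 FPKM. Of neutrophil markers these 3 held 2598, 855.9 and 1123 FPKM and the WT libraries 2737 to 3713 FPKM. The neutrophil markers did not move together, and 5 of the 10 were called lower, beside 16.8% of all genes tested. Ltf, Camp, Ngp, S100a8 and S100a9 were not called and had higher means in the labelled cKO libraries, with overlapping groups. The log2 changes of S100a8 and S100a9 were negative all the same. In library 1 labelled cKO, S100a9 was 894.8, S100a8 442.9 and Ngp 317.6 FPKM. Libraries 2 and 4 labelled cKO were also the lowest of all 10 in the summed megakaryocyte, B cell, and T and natural killer cell markers. The same held for mast cell and basophil, endothelial, and stem and progenitor markers. It did not hold for plasmacytoid dendritic cell, stromal and osteoblast, or erythroid markers. The part of these cell types in the level of Runx2 was likewise not tested. Reads from overlapping genes bear on Runx2 as well, because 4 genes lie on the opposite strand within it and the strand setting of the counting is not given in the sources used here. Supt3, a transcription coactivator gene that shares the locus, was 2.94 to 3.74 FPKM in WT and 1.17 to 3.03 FPKM in the labelled cKO libraries, and the antisense RNA Runx2os1 0.33 to 1.34 and 0 to 0.24 FPKM.

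Runx3 (ENSMUSG00000070691, chr4:134847952-134905301, plus strand), the member known from T and natural killer cells, differed least of the RUNX genes. It was 9.69, 10.5, 8.69, 9.93 and 9.70 FPKM in WT libraries 1 to 5 and 5.08, 5.36, 6.77, 5.34 and 7.06 FPKM in those labelled cKO. The groups did not overlap, and libraries 3 and 5 labelled cKO came nearest to WT. The means were 9.71 ± 0.664 and 5.92 ± 0.919 FPKM, so that 61.0% of the WT mean was present. The log2 difference of -0.71 (SE 0.110, 95% confidence interval -0.96 to -0.47) had a limma adjusted p of 4.78e-04 but a fold below 2, so Runx3 was not called. At an adjusted p under 0.05 alone, with no limit on the fold, 28.3% of all genes tested were lower.

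Cbfb (ENSMUSG00000031885, chr8:105897291-105944633, plus strand), the shared subunit, was the most abundant of the 7 in every library. It was 57.4, 55.0, 41.0, 56.6 and 58.6 FPKM in WT libraries 1 to 5 and 13.6, 17.1, 26.3, 15.1 and 24.5 FPKM in those labelled cKO. Among WT only library 3 stood apart, below the other 4, and in the other group libraries 3 and 5 were again the nearest to WT. The means were 53.7 ± 7.20 and 19.3 ± 5.73 FPKM, the second being 36.0% of the first. Cbfb fell by 1.51 on the log2 scale (SE 0.187, 95% confidence interval -1.92 to -1.10, limma adjusted p = 1.63e-04), and 11.9% of all genes tested had a change as low or lower.

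**Figure D2:**
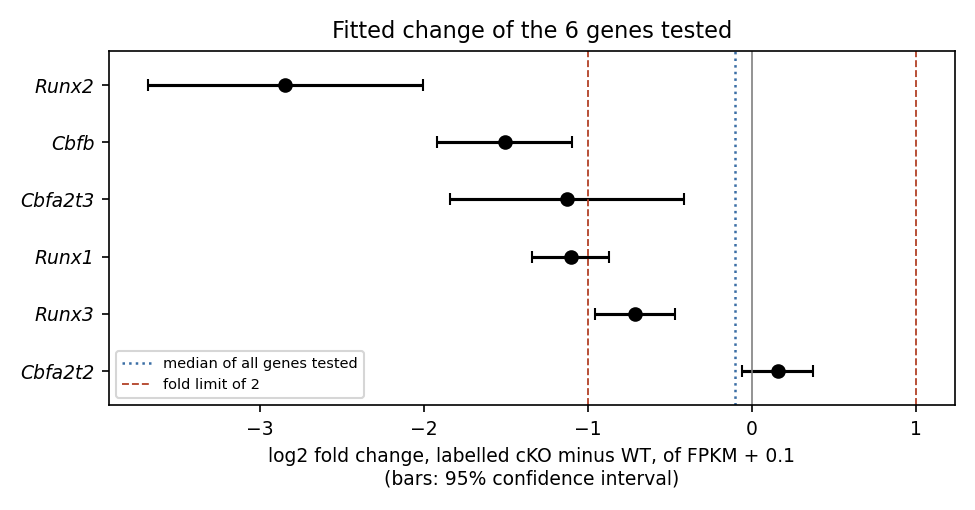
Fitted log2 fold change of FPKM + 0.1, labelled cKO minus WT (x axis), for the 6 genes tested, with 95% confidence intervals as bars, the median of all genes tested dotted and the fold limit of 2 dashed. Runx2 and Cbfb lie wholly beyond the limit, the intervals of Runx1 and Cbfa2t3 cross it, that of Runx3 lies between the limit and 0, and that of Cbfa2t2 includes 0.

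Because all 3 RUNX proteins bind the same sequence and the same CBFβ, their levels were also set against each other within each library, on the FPKM scale, which divides by gene length. In WT the 3 genes summed to 30.9 ± 3.12 FPKM (26.1 to 34.8) and in the labelled cKO libraries to 12.9 ± 1.6 FPKM (10.9 to 15.0). Runx1 made up 39.4% ± 2.33 of the WT sum, Runx3 31.6% ± 2.39 and Runx2 29.0% ± 3.29. In the labelled cKO libraries Runx3 made up 46.0% ± 3.30, Runx1 43.8% ± 5.23 and Runx2 10.2% ± 5.49 (SD, n = 5 each). The shares of Runx2 and Runx3 did not overlap between the groups, those of Runx1 did.

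**Figure D3:**
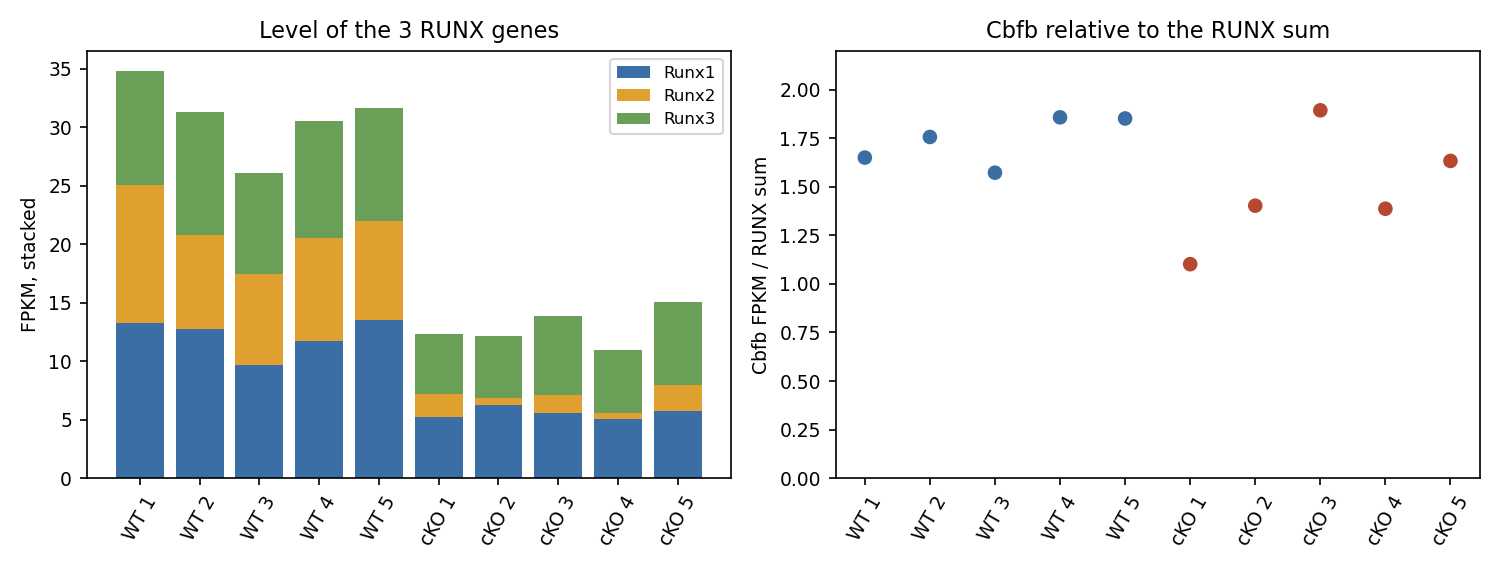
Left, FPKM of Runx1, Runx2 and Runx3 stacked for each library (bars from 0). Right, Cbfb FPKM divided by the sum of the 3 RUNX genes for each library (blue WT, red labelled cKO). The bars of the labelled cKO libraries reach 10.9 to 15.0 FPKM with little Runx2, and the ratio of Cbfb to the sum overlaps between the groups, at 1.57 to 1.86 in WT and 1.10 to 1.89 in the others.

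The ratios were tested one by one with exact two-sided permutation tests of the log2 ratio over the 10 libraries, 7 ratios in all, chosen after the values had been seen and adjusted together. The ratio of Runx2 to Runx1 was lower in the labelled cKO libraries by 1.74 on the log2 scale (SE 0.437, exact p = 0.00794, adjusted p = 0.0139), the smallest p that 5 against 5 libraries can give. That of Runx2 to Runx3 was lower by 2.13 (SE 0.392) at the same p and adjusted p. Runx1 relative to Runx3 differed less, by -0.39 on the log2 scale (SE 0.115, exact p = 0.0159, adjusted p = 0.0222). The differences were thus unequal within the family, largest for Runx2, then Runx1, then Runx3.

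Cbfb moved further than Runx3 and less far than Runx2. Its ratio to Runx3 differed by -0.79 on the log2 scale (SE 0.118, exact p = 0.00794, adjusted p = 0.0139) and its ratio to Runx2 by 1.34 (SE 0.398, exact p = 0.0238, adjusted p = 0.0278). The latter no longer passed after adjustment (exact p = 0.0476 before it) without WT library 1, 3 or 4 or library 2, 4 or 5 labelled cKO, where it was 1.13 to 1.46. Its ratio to Runx1 differed by -0.40 (SE 0.177, exact p = 0.0873, adjusted p = 0.0873), which is within the spread between libraries. That ratio did pass after adjustment with a pseudocount of 1 or without library 3 labelled cKO. The ratio of Cbfb to the sum of the RUNX genes was 1.74 ± 0.125 in WT and 1.48 ± 0.297 in the labelled cKO libraries, with overlapping ranges. A ratio within a library shows unequal change and does not say which of the genes changed.

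Cbfa2t2 (ENSMUSG00000038533, chr2:154278252-154381764, plus strand), an ETO family corepressor made in many tissues, was 4.46, 4.25, 4.51, 4.24 and 4.48 FPKM in WT libraries 1 to 5. It was 5.93, 4.90, 4.66, 4.72 and 4.39 FPKM in those labelled cKO, which overlapped with WT and were highest in library 1. The means were 4.39 ± 0.132 and 4.92 ± 0.594 FPKM. The log2 difference of 0.15 (SE 0.0988, limma adjusted p = 0.229) had a 95% confidence interval of -0.06 to 0.37, which leaves room for a level from 4.3% lower to 29.5% higher. Quantile normalization, which also moves the median of all genes from -0.11 to 0.10, gave 0.48 with an adjusted p of 0.0035.

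Cbfa2t3 (ENSMUSG00000006362, chr8:123351878-123426045, minus strand), the ETO family member of the erythroid and megakaryocytic complex, was 10.9, 15.2, 9.72, 10.8 and 12.2 FPKM in WT libraries 1 to 5. It was 2.15, 6.83, 8.48, 4.34 and 7.43 FPKM in those labelled cKO. The groups did not overlap, but library 3 labelled cKO came close to the lowest WT library while library 1 was far below. The means were 11.8 ± 2.11 and 5.85 ± 2.57 FPKM, and Cbfa2t3 fell by 1.13 on the log2 scale (SE 0.323, 95% confidence interval -1.84 to -0.41, limma adjusted p = 0.0150). Without library 1 labelled cKO the change was -0.81 with an adjusted p of 0.00622, and the gene was no longer called. Among the 5 libraries labelled cKO that library was also the lowest in Cbfb and Runx3, the highest in Cbfa2t2 and the highest in the summed neutrophil markers, at 2598 FPKM against 147.8 to 1123 FPKM. With Xist as a covariate the change of Cbfa2t3 was -1.27 with an adjusted p of 0.0528.

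The ratio of Cbfa2t3 to Cbfa2t2 went from 2.69 ± 0.536 in WT to 1.24 ± 0.599 in the labelled cKO libraries, a difference of -1.28 on the log2 scale (SE 0.434, exact permutation p = 0.00794, adjusted p = 0.0139). In WT the first was the more abundant in 5 of 5 libraries, and in libraries 1 and 4 labelled cKO the second was. A pseudogene on the same strand inside Cbfa2t3, Gm15899, was 9.24 to 20.1 FPKM in WT and 3.64 to 10.4 FPKM in the labelled cKO libraries, and how reads were assigned between these genes is not given in the sources used here.

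Runx1t1 (ENSMUSG00000006586, chr4:13743165-13893649, plus strand), the ETO gene itself, was 0.03, 0.06, 0.13, 0.04 and 0.04 FPKM in WT libraries 1 to 5 and 0.05, 0.03, 0.04, 0.08 and 0.02 FPKM in those labelled cKO. These values stand for about 2.6 to 16.8 fragments, and a floor of 3 fragments would be 0.019 to 0.026 FPKM, depending on the library. The difference of the means, -0.016 FPKM, was within the spread (exact two-sided permutation test, p = 0.603), and a difference was not detectable at this depth. Without WT library 3 the sign turned, to 0.0015 FPKM.

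In order of level, Cbfb stood above all others in WT, Runx1, Cbfa2t3, Runx3 and Runx2 followed with each overlapping the next, and Cbfa2t2 and then Runx1t1 lay below them without overlap. In the labelled cKO libraries Cbfb was again first and Runx1t1 last. Between them Runx3, Cbfa2t3, Runx1 and Cbfa2t2 overlapped, and within every library Runx2 was below each of these. In WT Runx2 was already below Runx1 in every library, but above Cbfa2t2.

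WT library 3 was the lowest WT library in Runx1, Runx2, Runx3, Cbfb and Cbfa2t3, and it had the highest sum of 12 erythroid markers of its group, 1706 FPKM against 632.2 to 972.5 FPKM. In the labelled cKO libraries the erythroid sum was 2307 to 3654 FPKM, lowest in library 5, and 7 of the 12 markers were called higher, with a median log2 fold change of 1.63. Hbb-bs, a β-globin, rose from 157.6 ± 112 to 1028 ± 267 FPKM. Stem and progenitor markers, where RUNX1 is known to act, went the other way, with sums of 90.5 to 123.2 FPKM in WT and 22.8 to 46.7 FPKM in the labelled cKO libraries and 7 of 9 called lower. Monocyte markers were called lower in 8 of 10, neutrophil markers in 5 of 10, megakaryocyte markers in 9 of 9 and mast cell and basophil markers in 6 of 7. B cell markers were called lower in 4 of 7, T and natural killer cell markers in 6 of 10, endothelial markers in 4 of 5 and stromal and osteoblast markers in 3 of 6, with 1 of the last higher. Of all genes tested, 16.8% were called lower and 4.6% higher. Some of the marker counts moved with the settings. With a pseudocount of 1 they were 2 for B cell, 2 for T and natural killer cell, 1 for endothelial and 4 for stem and progenitor markers, and among genes averaging 1 FPKM or more 2, 2 and 1 for the first 3 of these and 1 for stromal and osteoblast markers. The part of the cell makeup in the levels of the RUNX and ETO family genes was not tested.

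Genes with the most similar profiles were sought among the 12353 genes averaging 1 FPKM or more, by the root mean square distance over the 10 libraries of log2 values centred on the WT mean. Nearest to Runx1 were Mob3a (0.112), Xylt1 (0.114) and Map7d1 (0.115), with Mob3a, a MOB kinase activator family gene, at 28.9 ± 2.74 and 13.0 ± 0.783 FPKM. Nearest to Runx2 were Rel (0.174), Appl2 (0.187) and Tes (0.194), with Rel, the NF-κB subunit c-Rel, at 6.66 ± 1.46 and 0.962 ± 0.534 FPKM. Nearest to Runx3 were Tbc1d13 (0.0639), Ing3 (0.0715) and Plscr3 (0.0718). Cbfb had Elmo2 (0.0765), Lcp1 (0.0825) and 6530402F18Rik (0.0832) as its nearest, with Lcp1, the white blood cell actin bundler L-plastin, at 63.5 ± 9.61 and 22.2 ± 6.57 FPKM. Cbfa2t2 lay nearest to Smc3 (0.0558), Mapk9 (0.0569) and Ubr1 (0.0581), and Cbfa2t3 nearest to Tmem229b (0.22), Mdfic (0.226) and Ass1 (0.234), the largest distances of the 6.

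The genes of proteins that RUNX and ETO family factors recruit came from lists of corepressors and coactivators. The 13 corepressor genes had a median log2 fold change of -0.15. Of them 2 were called lower and 0 higher, beside 16.8% and 4.6% of all genes tested. At the adjusted p alone 3 were lower and 0 higher, beside 28.3% and 16.7% of all genes tested. At an unadjusted p under 0.05, for which the share of all genes was not taken, 7 were lower and 1 higher. Tle3, a Groucho-type corepressor that binds the end of RUNX proteins, fell from 8.39 ± 1.03 to 4.16 ± 0.810 FPKM (-1.01, adjusted p = 2.96e-04), and its relative Tle2 from 0.608 ± 0.28 to 0.0620 ± 0.0383 FPKM (-2.08, adjusted p = 3.71e-04). Without WT library 1 or 5, or library 3, 4 or 5 labelled cKO, 1 of the 13 was called, as with median-ratio scaling, and with a pseudocount of 1 it was 0. Tle5, the shortened family member and the most abundant of the list, was 62.7 ± 2.39 and 56.6 ± 5.23 FPKM (adjusted p = 0.0977), and the deacetylase gene Hdac2 37.3 ± 2.86 and 36.3 ± 5.32 FPKM (adjusted p = 0.744). Ncor1 and Hdac3, whose products bind ETO family proteins, were 34.5 ± 1.2 and 31.3 ± 2.10 FPKM and 20.3 ± 0.673 and 22.7 ± 1.67 FPKM (adjusted p = 0.0736 and 0.0638), and were added here after their values were seen.

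By limma 0 of the 7 coactivator genes were called, with a median of -0.23, and at the adjusted p alone, as at an unadjusted p under 0.05, 3 were lower and 1 higher, where 28.3% of all genes tested were lower and 16.7% higher. Kat6a (MOZ), an acetyltransferase that binds RUNX1, was 24.5 ± 1.98 and 19.5 ± 1.26 FPKM (-0.32, adjusted p = 0.00474). Prmt1, the arginine methyltransferase that modifies RUNX1, was 62.7 ± 6.62 and 94.8 ± 8.35 FPKM (0.60, adjusted p = 3.51e-04). Of 8 genes for enzymes that phosphorylate or degrade RUNX proteins, 1 was called lower and 0 higher, beside 16.8% and 4.6% of all genes tested. At the adjusted p alone, as at an unadjusted p under 0.05, the numbers were 4 lower and 3 higher. The 1 called lower was Smurf1, a ubiquitin ligase known to act on RUNX2, from 2.49 ± 0.429 to 1.09 ± 0.182 FPKM (-1.13, adjusted p = 4.93e-04). With a pseudocount of 1 or quantile normalization 0 of the 8 were called lower. The most abundant of these 8 were Cdc20, a subunit of the mitotic ubiquitin ligase, at 97.9 ± 11.9 and 130.8 ± 5.12 FPKM, and Cdk6, a kinase that binds RUNX1, at 41.4 ± 5.64 and 33.2 ± 0.914 FPKM (adjusted p = 0.00138 and 0.0137, both under 2-fold).

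Among 11 genes whose products share complexes with CBFA2T3, 1 was called lower and 0 higher, beside 16.8% and 4.6% of all genes tested. At the adjusted p alone, as at an unadjusted p under 0.05, 4 were lower and 6 higher. The shares of all genes tested at the adjusted p alone were 28.3% and 16.7%. The median was 0.31, opposite in sign to the change of Cbfa2t3. Gfi1, a repressor of myeloid genes, fell from 12.6 ± 1.24 to 3.66 ± 2.65 FPKM (-2.12, adjusted p = 0.00423), and without WT library 3 or library 3 or 5 labelled cKO 2 of the 11 were called lower. Gata1, the erythroid and megakaryocytic factor, was 58 ± 11.8 and 100.6 ± 6.84 FPKM (0.81, adjusted p = 3.60e-04, under 2-fold). Lmo2, the bridge of the complex and the most abundant of these genes, was 137.9 ± 7.19 and 140.4 ± 13.2 FPKM (0.02, adjusted p = 0.819).

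**Figure D4:**
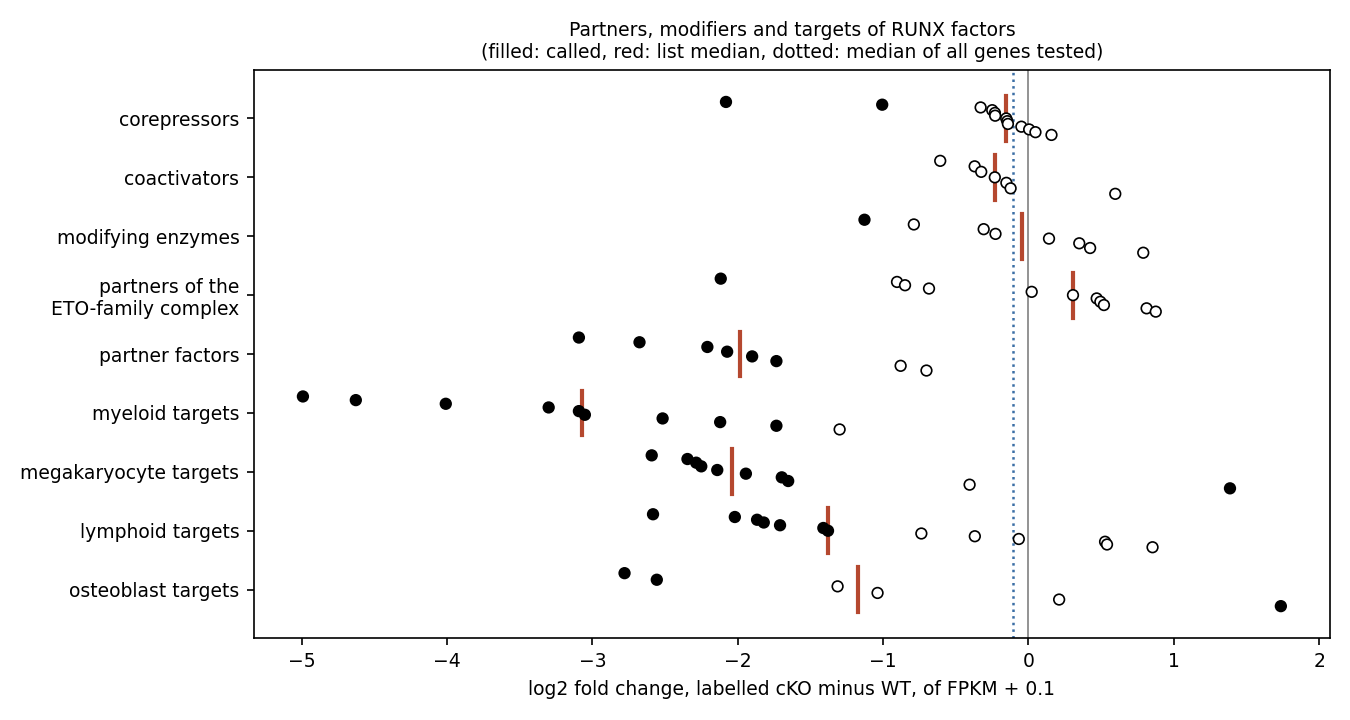
Log2 fold change of FPKM + 0.1, labelled cKO minus WT (x axis), of each tested gene of 9 lists of partners, modifying enzymes and targets of RUNX and ETO family factors. Filled points passed both limits, red bars are list medians and the dotted line is the median of all genes tested, -0.11. The medians of the corepressors, coactivators and modifying enzymes lie near it, though single genes do not, while the median of the partner factors is -1.99.

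Of 9 genes for factors that bind DNA next to RUNX proteins, Lef1 was under 0.1 FPKM on average. Of the 8 tested, 6 were called lower, 0 were called higher and the median was -1.99. The shares of all genes tested were 16.8% lower and 4.6% higher. Erg and Fli1, ETS factors that occupy sites with RUNX1 in progenitors, fell from 12.4 ± 1.57 to 2.10 ± 1.19 FPKM (-2.68, adjusted p = 1.71e-04) and from 24.4 ± 3.37 to 5.63 ± 2.39 FPKM (-2.21, adjusted p = 1.92e-04). Cebpa, the granulocyte and monocyte factor, fell by 3.09 and Ets1, whose product binds DNA together with RUNX1, by 2.07 on the log2 scale (adjusted p = 0.00104 and 0.00107). Myb and Elf1, the most abundant, were 70.6 ± 8.08 and 38.7 ± 7.33 FPKM and 36.5 ± 2.40 and 22.5 ± 2.08 FPKM, with adjusted p of 3.56e-04 and 1.08e-04 and a fold below 2.

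Genes known as RUNX targets in blood cells were taken by lineage. Among the 10 myeloid targets, the median log2 fold change was -3.07, with 9 called lower and 0 called higher. The shares of all genes tested were 16.8% lower and 4.6% higher. Lyz2, lysozyme, fell from 694.1 ± 220 to 47.9 ± 51.5 FPKM, Csf1r, the M-CSF receptor, from 26.8 ± 4.53 to 2.03 ± 2.50 FPKM, and Csf3r, the G-CSF receptor, from 22.6 ± 2.95 to 1.95 ± 1.69 FPKM (adjusted p = 0.00179, 7.99e-04 and 4.08e-04). Mpo, myeloperoxidase, went from 1162 ± 154 to 191.3 ± 148 FPKM (-3.05, adjusted p = 0.00103) and Elane, neutrophil elastase, from 826.1 ± 125 to 118.4 ± 96.2 FPKM (-3.30, adjusted p = 8.93e-04). Lyz2 and Csf1r are also among the monocyte markers and Mpo and Elane among the neutrophil markers, whose sums are given above.

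Among the 10 megakaryocyte targets, the median log2 fold change was -2.04, with 8 called lower and 1 called higher. The shares of all genes tested were 16.8% lower and 4.6% higher. Pf4, a platelet chemokine, fell from 270.3 ± 110 to 53.4 ± 23.9 FPKM (-2.35, adjusted p = 7.84e-04) and Pear1, a platelet receptor, from 3.67 ± 0.550 to 0.564 ± 0.282 FPKM (-2.59, adjusted p = 8.45e-05). Myl9, a myosin light chain, and Alox12, platelet lipoxygenase, fell by 2.29 and 2.25 on the log2 scale (adjusted p = 0.00588 and 0.00302). The 1 called higher was Prkcq, protein kinase C-θ, from 4.05 ± 1.16 to 11.2 ± 4.76 FPKM (1.39, adjusted p = 0.00536), which is named after its values were seen. Nfe2, a factor of both megakaryocytes and red cells, was 51.8 ± 5.68 and 39.5 ± 7.91 FPKM (-0.40, adjusted p = 0.0298). With Xist as a covariate 5 of the 10 were called lower and in the libraries at or under 1 FPKM of Xist 4. Pf4 and other genes of this list are also among the megakaryocyte markers counted above.

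Of 14 lymphoid targets, 13 were tested, with 7 called lower, 0 called higher and a median of -1.38. The shares of all genes tested were 16.8% lower and 4.6% higher. At an unadjusted p under 0.05, 1 of the targets was higher. Itgal, the integrin αL chain, fell from 28.2 ± 4.35 to 5.4 ± 3.21 FPKM (-2.58, adjusted p = 3.98e-04) and Il7r, the interleukin-7 receptor, from 4.81 ± 1.42 to 1.37 ± 0.775 FPKM (-1.87, adjusted p = 0.00227). Zbtb7b, the factor of helper T cells ThPOK, went from 9.67 ± 1.31 to 3.05 ± 1.18 FPKM (-1.71, adjusted p = 3.36e-04). Rag1, of antigen receptor recombination, and Cd4, which RUNX factors silence in killer T cells, were under 1.1 FPKM in every library and fell by 2.02 and 1.82 (adjusted p = 0.0151 and 0.00206). With a pseudocount of 1, 3 of the 13 were called lower, among genes averaging 1 FPKM or more 3, and in the libraries low in Xist 2. Rag1 is also among the B cell markers counted above.

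RUNX sequences stand near the starts of several of these targets, among them some that were not called lower. Prkcq, which was called higher, has TGTGGT in 2 windows, and Nfe2, Blk, Prf1, Gzmb, Itgae and Cd33, which were not called, hold it too. The sequence is shown for 4 that were called lower and chosen after their values were seen, the granule enzyme genes Mpo and Lyz2, the megakaryocyte gene Itga2b and the lymphoid gene Il7r, with TGTGGT or its complement ACCACA in capitals. The sites begin at -104, -17, -210 and -38 from the starts.
Mpo, chr11:87684291-87684320: aactgaccattaACCACAaccagctctgcc
Lyz2, chr10:117118226-117118255: caaatgtaggaaACCACAagctgttgggaa
Itga2b, chr11:102361148-102361177: ggctccagtgtaACCACActaagacttggt
Il7r, chr15:9529942-9529971: tagttccctgtcTGTGGTttagcaggcaca
Itga2b, the platelet integrin αIIb, is named for its site and went from 63.3 ± 14.3 to 16.5 ± 4.59 FPKM (-1.94, adjusted p = 1.03e-04). The sequence was in 14.3% of the windows of all genes tested, beside the 16.4% for genes called lower.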

How the data were processed

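Lin- bone marrow cells of the 2 genotypes were sequenced as paired-end RNA-seq, 5 libraries per label. Per the labels' processing notes the authors used cutadapt 1.9.1, HISAT2 2.0.1 and HTSeq 0.6.1 with GRCm39. They deposited FPKM, fragments scaled by gene length and library size, rounded, per gene and library. The annotation, gene lengths and strand setting are not given in the sources used here. Columns were matched to samples by name.

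FPKM are not counts, so no count test was run. limma 3.58.1 (lmFit, eBayes with a trend, R 4.3.3) was applied to log2(FPKM + 0.1) of the 18742 genes averaging 0.1 FPKM or more, as a two-sided test adjusted by Benjamini-Hochberg over all of them; fold changes of low genes are understated on this scale. A call needed both an adjusted p under 0.05 and a fold of at least 2. Single values and ratios had exact permutation tests (scipy 1.17.1). Depth was read from genes with 1 transcript, where 96.7% to 97.4% of values of up to 20 fragments were whole within 0.2, and fragment numbers of the named genes are approximate and cover counting error only. The lists came from general knowledge. The 7 genes, the lists and the tests were chosen with earlier results of these data known. From each list were named up to 4 called genes with the largest change and the 2 most abundant. Sequences came from GRCm39 at GENCODE starts. Alternatives were other pseudocounts, filters, scalings, no trend, a replicate block, Xist as a covariate, libraries low in Xist only, adjusted p alone and each library left out. The fits were tested on simulated data.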

Additional observations from a re-analysis of the deposited data

Results flagged for a closer look

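In 14 groups of 5 libraries, each gene in each genotype, the gap between the most extreme library and its neighbour was compared with Dixon's limit for 5 samples, 0.71 of the range. It was above the limit in 2 groups, where chance alone gives about 0.7. Runx2 in WT library 1 was 11.8 FPKM, with the next library at 8.85 and a gap of 0.730 of the range. Without this library Runx2 remained called. The same library was the lowest WT library in the summed megakaryocyte markers, at 302.3 FPKM against 809.1 to 1370 FPKM in the other 4. Cbfb in WT library 3 was 41.0 FPKM, with the other 4 at 55.0 to 58.6 and a gap of 0.794 of the range. That library had the highest sum of erythroid markers among the WT libraries, and without it Cbfb remained called.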

How the results depend on the processing

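Runx2 and Cbfb were called lower, and Cbfa2t2 was not called by the fold limit, under every alternative run. Of all genes tested 862 were called higher and 3153 lower, against 356 and 1486 with a pseudocount of 1, 462 and 1827 among genes averaging 1 FPKM or more, 1581 and 2245 with quantile normalization (41.3% of calls higher against 21.5%), 536 and 2261 in the libraries at or under 1 FPKM of Xist, and 3138 and 5300 at the adjusted p alone. Of the 7 genes, 4 were called lower, and 2 with a pseudocount of 1 or quantile normalization. Runx1 was -0.996, -0.9999 and -0.929 with a pseudocount of 1, median-ratio scaling and quantile normalization, under the fold limit. Cbfa2t3 was -0.988 with a pseudocount of 1 and -0.937 with quantile normalization, and -1.27 with an adjusted p of 0.0528 with Xist as a covariate and 0.102 in the libraries low in Xist. With both libraries numbered 1 left out, an alternative added after seeing the data, it was -0.836. Runx3, at -0.714, passed the adjusted p alone. Leaving out 1 library at a time gave -1.30 to -0.81 for Cbfa2t3, -0.025 to 0.0015 FPKM for Runx1t1, whose sign turned without WT library 3, 762 to 948 genes higher and 2892 to 3268 lower. Median-ratio scaling moved the median of all genes from -0.106 to -0.006 and quantile normalization to 0.099. Relative to that median Runx1 was -0.999, -0.994 and -1.028 in the 3 fits, Runx3 -0.608, -0.603 and -0.619, and Cbfa2t2 0.261, 0.265 and 0.381. The median of the modifying enzymes, -0.04, turned to 0.06 with median-ratio scaling and to 0.0057 without library 1 labelled cKO. The ratio of Cbfb to Runx1 differed by -0.47 with a pseudocount of 1 and -0.52 without library 3 labelled cKO. The exact permutation p was 0.0397 and 0.0159 before adjustment, and both passed 0.05 after it. Same-numbered libraries deviated together with correlations of 0.185, 0.089, -0.077, 0.002 and 0.193. Libraries 1 and 5 labelled cKO correlated best with the WT library of their own number, and libraries 2, 3 and 4 did not. These values do not settle whether the numbers pair the samples. With the replicate block 857 genes were called higher and 3107 lower and the same 4 of the 7 genes lower. For Runx1t1, at 2.6 to 16.8 fragments, depth limits what can be seen.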
